A study of Homo sapiens with 6 samples.

Results

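Epithelial cells and mesenchymal cells are told apart by a small set of structural genes, and 10 of these were followed here across A549 cells in which the long noncoding RNA PLANE had been targeted. The 10 genes were taken from a list of names, with no threshold on their values. They comprise 6 epithelial genes (KRT7, KRT8, KRT18, KRT19, CDH1 and EPCAM) and 4 mesenchymal genes (CDH2, VIM, FN1 and ZEB1), out of 34957 genes with an identifier, and they hold 133 of the 180253 transcripts in the tables. A549 is an established line of human lung adenocarcinoma cells. The cells were transfected, with a lipid reagent, with a negative control siRNA (si-ctrl, replicates 1 and 2), a first siRNA against PLANE (si-PLANE.1, replicates 1 and 2) or a second siRNA against it (si-PLANE.2, replicates 3 and 4). An siRNA is a short double-stranded RNA that directs the breakdown of a matching transcript. RNA-seq with short reads was made from 6 libraries. All groups share the A549 background, a single cancer cell line.

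Keratins are the intermediate filament proteins of epithelia, in which a type II keratin such as KRT8 or KRT7 pairs with a type I keratin such as KRT18 or KRT19. E-cadherin (CDH1) and EPCAM hold epithelial cells to each other at the surface. In an epithelial to mesenchymal transition (EMT), cells typically lose E-cadherin and gain N-cadherin (CDH2), vimentin (VIM) filaments and fibronectin (FN1) matrix under transcriptional repressors such as ZEB1. Lung adenocarcinoma lines often carry both kinds of gene at once.

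The authors deposited an expected count and an FPKM value for each transcript and library. An expected count estimates how many reads a transcript gave, and FPKM scales it to the length of the transcript and to the depth of the library. Gene totals are sums over the transcripts of a gene, and levels are compared between genes only in FPKM. Tests were made on the counts of each gene with edgeR's quasi-likelihood test, and a gene was called at a Benjamini-Hochberg adjusted p under 0.05 over all genes tested. Libraries held 10572151 to 20778431 expected counts. The labels do not say whether replicates came from separate cultures, so the p-values measure the spread between these libraries only.

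Both si-PLANE.2 libraries differed broadly from the other 4. Across transcripts, not gene totals, log2(FPKM + 1) values correlated at 0.919 to 0.928 among the libraries of si-ctrl and si-PLANE.1. They correlated at 0.953 between both si-PLANE.2 libraries and at 0.731 to 0.756 between these sets. Histone mRNAs without a poly(A) tail summed, over 11 genes, to 1799 and 2307 FPKM in si-ctrl, to 1077 and 1525 FPKM with si-PLANE.1 and to 5.39 and 5.35 FPKM with si-PLANE.2. Both poly(A) isolation and removal of rRNA are named in the methods, and neither is tied to a library there. An effect of the second siRNA and a difference in library preparation therefore cannot be told apart in any value of si-PLANE.2 given here. PLANE itself was not analysed here, so its knockdown was not checked.

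The identity of the cells was first examined in the control. In si-ctrl the 10 genes spanned a wide range of levels, with epithelial keratins at the top and N-cadherin at the bottom. KRT18 stood first with 3735 and 4281 FPKM in the si-ctrl libraries, followed by KRT8 with 3332 and 3093 FPKM. KRT7 followed with 1098 and 1252 FPKM. The mesenchymal filament gene VIM came next with 567 and 640.5 FPKM, ahead of FN1 with 406 and 358 FPKM. In every library these 5 genes stood at percentile 98.0 or above among genes detected in any library.

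CDH1 came sixth with 129.6 and 156 FPKM. EPCAM followed with 18.3 and 15.4 FPKM and ZEB1 with 9.43 and 11.2 FPKM. KRT19, at 4.18 and 0.76 FPKM, and CDH2, at 2.27 and 2.06 FPKM, closed the order. The ranges of neighbouring genes did not overlap in si-ctrl except for KRT19 and CDH2. In si-PLANE.1 the order was the same, although the ranges of KRT18 and KRT8 overlapped as well as those of KRT19 and CDH2.

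In si-PLANE.2 the order changed at 3 places. KRT8 stood above KRT18, ZEB1 stood above EPCAM, and CDH2 stood above KRT19. The ranges of the last pair overlapped, while those of the first 2 pairs did not. Markers of lung epithelium ranged widely. SFTPA1 and SCGB1A1, which encode a surfactant protein and the club cell secretory protein, were listed at 0 in all 6 libraries. NKX2-1, a lung lineage transcription factor, did not exceed 0.33 FPKM. ABCA3, a lipid transporter of alveolar type II cells, lay at 14.7 to 26.3 FPKM, and the mucin gene MUC5B reached 128 to 409 FPKM. Of 19 lung epithelium markers, 9 reached 1 FPKM in at least 1 library.

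**Figure D1:**
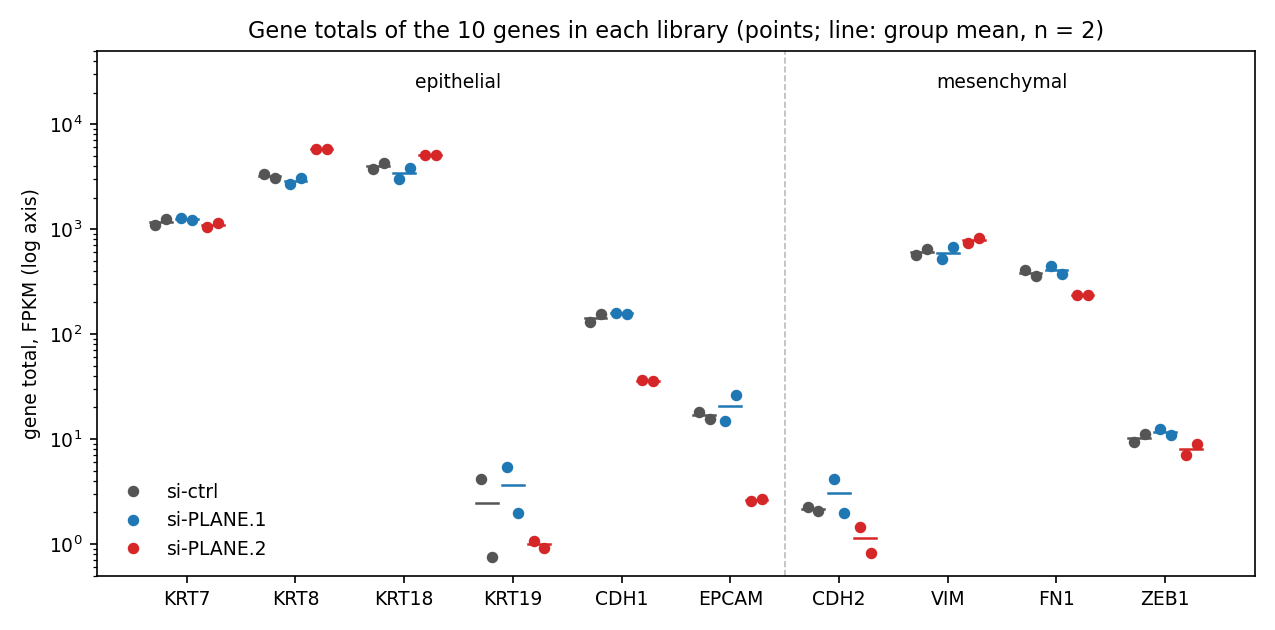
Gene totals in FPKM on a log axis for each of the 10 genes, with 1 point per library, a line at the mean of the 2 libraries of a group, and epithelial genes left of the dashed line. CDH1 lay at 129.6 to 160.01 FPKM in the libraries of si-ctrl and si-PLANE.1 and at 35.4 and 36.5 FPKM with si-PLANE.2, whereas KRT7 stayed between 1053 and 1269 FPKM in all 6 libraries.

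The first siRNA was compared with si-ctrl to ask whether targeting PLANE moved the identity genes. With si-PLANE.1 none of the 10 genes passed the test, against 0.0344% of all 14535 genes tested (5 genes called). In this edgeR fit, made without a block for replicate number, none of the 10 reached an unadjusted p under 0.05, against 1517 of all 14535 genes tested. DESeq2 and limma on log2(FPKM + 1) called none of the 10 either. The adjusted p-values from edgeR ran from 0.634 for KRT8 to 0.996 for FN1. The median log2 fold change of the 10 genes was 0.02, against 0.00 over all genes tested.

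These intervals set what could have been missed. KRT8 differed by a log2 fold change of -0.31 (SE 0.20), with a 95% interval of -0.78 to 0.16, and KRT18 by -0.32 (SE 0.24), with an interval of -0.87 to 0.23. CDH1 differed by 0.09 (SE 0.15), with an interval of -0.26 to 0.45. VIM differed by -0.11 (SE 0.20), with an interval of -0.57 to 0.35. A change of the size seen for CDH1 with si-PLANE.2, described next, lay outside the CDH1 interval for si-PLANE.1.

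EPCAM showed 14.8 and 26.5 FPKM with si-PLANE.1 and a log2 fold change of 0.29 (SE 0.22), with an interval of -0.22 to 0.80. In FPKM its 2 si-PLANE.1 libraries lay on either side of the si-ctrl values, whereas in counts scaled to library size (CPM) both (15.0 and 21.2) lay above si-ctrl (14.2 and 13.7). KRT19 was the least certain, at 5.38 and 1.98 FPKM with si-PLANE.1, with an interval of -1.54 to 2.03. Only 12 to 65 expected counts stood behind KRT19 in any library. CDH2 showed 4.17 and 1.98 FPKM and an interval of -0.50 to 0.57, on 80 to 119 counts in the 4 libraries compared. ZEB1 showed 12.5 and 10.9 FPKM, with an interval of -0.18 to 0.48, and FN1 showed 442 and 377 FPKM, with an interval of -0.44 to 0.45. KRT7 showed 1269 and 1210 FPKM, with an interval of -0.40 to 0.36.

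With si-PLANE.2, in contrast, 9 of the 10 genes passed the test, against 64.1% of all 14168 genes tested (9083 genes called). Of these, 4 were higher, against 31.8% of all genes, and 5 were lower, against 32.3% of all genes. KRT8, KRT18, KRT7 and VIM rose, and EPCAM, CDH1, CDH2, FN1 and ZEB1 fell. Each direction thus held epithelial and mesenchymal genes. The only mesenchymal gene that rose, VIM, was close to the threshold (adjusted p = 0.0444 in edgeR). The median log2 fold change of the 10 genes was -0.76, against -0.03 over all genes tested. Among all genes called by edgeR, 49.7% were higher, whereas limma gave 37.1% on log2(FPKM + 1) and 28.6% on log2(TPM + 1), which also moved the median of all genes to -0.22 and -0.37. Differences on these scales are therefore also given relative to that median.

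**Figure D2:**
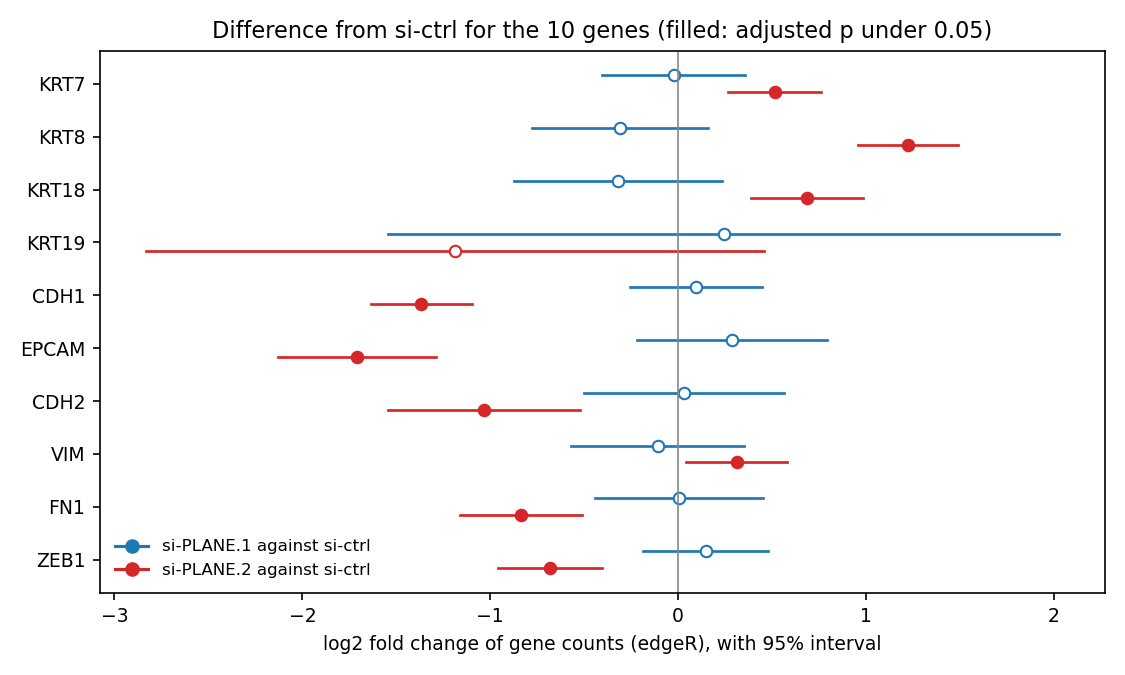
Log2 fold change of gene counts against si-ctrl from edgeR for each of the 10 genes, with 95% intervals, for si-PLANE.1 (blue) and si-PLANE.2 (red), where a filled point marks an adjusted p under 0.05. All si-PLANE.1 intervals cover 0, and the si-PLANE.2 points run from -1.71 for EPCAM to 1.23 for KRT8.

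KRT8 rose most among the 10 genes. Its level was 5823 and 5772 FPKM with si-PLANE.2, above both si-ctrl libraries (3332 and 3093 FPKM) and both si-PLANE.1 libraries (2712 and 3068 FPKM). The log2 fold change was 1.23 (SE 0.11, adjusted p = 7.74e-05 in edgeR). On the log2(FPKM + 1) scale the difference was 0.85, or 1.08 relative to the median of all genes. KRT18, its type I partner, showed 5131 and 5054 FPKM with si-PLANE.2, and no library of another group reached these values. Its log2 fold change was 0.69 (SE 0.13, adjusted p = 0.00237 in edgeR), which fell to 0.19 on the log2(TPM + 1) scale (adjusted p = 0.127 in limma), or 0.56 relative to the median. Without si-PLANE.2 replicate 3 the adjusted p of KRT18 was 0.0551.

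The balance of the pair shifted as a description. The ratio of KRT8 to KRT18 in FPKM was 0.892 and 0.723 in si-ctrl, 0.904 and 0.798 in si-PLANE.1, and 1.14 in both si-PLANE.2 libraries. The 2 genes lie next to each other on chromosome 12 of GRCh37 (hg19), KRT8 at chr12:53290971-53343738 on the minus strand and KRT18 at chr12:53342655-53346690 on the plus strand. Their annotated spans overlap by 1084 bases, and the sources used here do not say whether the libraries kept strand, so reads from the overlap cannot be assigned with certainty. Pseudogenes, 51 of KRT8 and 67 of KRT18, held at most 0.532% of the reads of gene and pseudogenes together in any library, and adding their counts left both genes called.

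KRT7, the type II keratin of simple glandular epithelia, depended on the scale. Its gene total was 1053 and 1136 FPKM with si-PLANE.2, which overlapped with the si-ctrl libraries. In counts it rose by a log2 fold change of 0.51 (SE 0.11, adjusted p = 0.00381 in edgeR), while on log2(FPKM + 1) it was lower by a log2 difference of -0.10 (adjusted p = 0.473 in limma), which was 0.12 above the median of all genes. The full-length coding transcript KRT7-201 held 762 and 726 FPKM in si-ctrl, 839 and 722 FPKM with si-PLANE.1, and 989.85 and 1073 FPKM with si-PLANE.2. Short transcripts of the gene moved the other way, among them KRT7-209 (499 bases, no coding sequence defined) with 112 and 203 FPKM in si-ctrl and 1.46 and 1.25 FPKM with si-PLANE.2. Without si-PLANE.2 replicate 4 the adjusted p of the KRT7 gene counts was 0.0877. The KRT7 locus also overlaps other genes, by 2887 bases with the keratin gene KRT86 on the same strand and by 2401 bases with the antisense gene KRT7-AS.

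KRT19 was not called with si-PLANE.2. Its level was 1.08 and 0.92 FPKM there, inside the range of si-ctrl. The log2 fold change was -1.19 (SE 0.70, adjusted p = 0.173 in edgeR), with an interval of -2.83 to 0.46. Its result rested on the control library it was set against: without si-ctrl replicate 2 the value was -1.93 (adjusted p = 2.48e-05), and without si-ctrl replicate 1 it was 0.50 (adjusted p = 0.514).

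CDH1, the classical cadherin of epithelial junctions, fell to 36.5 and 35.4 FPKM with si-PLANE.2. The si-ctrl libraries held 129.6 and 156 FPKM and the si-PLANE.1 libraries 160.01 and 155 FPKM, so that si-PLANE.2 lay far below every other library. The log2 fold change was -1.37 (SE 0.11, adjusted p = 4.98e-05 in edgeR), a 2.58-fold lower count. It was -1.95 on log2(FPKM + 1), or -1.73 relative to the median, and -0.95 when only protein-coding transcripts were counted (adjusted p = 0.000783).

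EPCAM, a surface glycoprotein of epithelia, fell most of the 10 genes. It showed 2.59 and 2.70 FPKM with si-PLANE.2 against 18.3 and 15.4 FPKM in si-ctrl, without overlap. The log2 fold change was -1.71 (SE 0.18, adjusted p = 0.000137 in edgeR), on 76 and 71 expected counts in si-PLANE.2. Counted over protein-coding transcripts alone the value was -1.14 (adjusted p = 0.00677).

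Of the mesenchymal genes, VIM was higher and the other 3 were lower. VIM showed 745 and 821 FPKM with si-PLANE.2, above the si-ctrl libraries (567 and 640.5 FPKM) and the si-PLANE.1 libraries (515 and 671 FPKM). The log2 fold change was 0.31 (SE 0.11, adjusted p = 0.0444 in edgeR), close to the threshold. The call was lost under 8 alternatives, with an adjusted p of 0.0638 under upper-quartile scaling, 0.173 over coding transcripts only, and 0.180 and 0.290 without si-PLANE.2 replicate 3 and replicate 4.

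FN1, which encodes the matrix protein fibronectin, fell to 235.5 and 238 FPKM with si-PLANE.2, below every other library. The log2 fold change was -0.83 (SE 0.14, adjusted p = 0.00135 in edgeR). ZEB1, a zinc finger repressor of CDH1 in EMT, showed 7.06 and 9.06 FPKM, just below the si-ctrl libraries. Its log2 fold change was -0.68 (SE 0.12, adjusted p = 0.00174 in edgeR), but -0.32 on log2(FPKM + 1) (adjusted p = 0.170 in limma) and -0.10 relative to the median there.

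CDH2, the N-cadherin gene, showed 1.46 and 0.83 FPKM, below both si-ctrl libraries. Its log2 fold change was -1.03 (SE 0.22, adjusted p = 0.00442 in edgeR) on 83 and 59 expected counts. The adjusted p was 0.0690 on log2(FPKM + 1) and 0.0548 without si-PLANE.2 replicate 4. The ratio of CDH1 to CDH2 in FPKM was 57.1 and 75.6 in si-ctrl, 38.4 and 78.1 in si-PLANE.1, and 25.0 and 42.7 in si-PLANE.2, and the range of si-PLANE.2 overlapped that of si-PLANE.1. The ratio of CDH1 to VIM was 0.228 and 0.243 in si-ctrl, 0.311 and 0.230 in si-PLANE.1, and 0.0489 and 0.0431 in si-PLANE.2, without overlap.

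**Figure D3:**
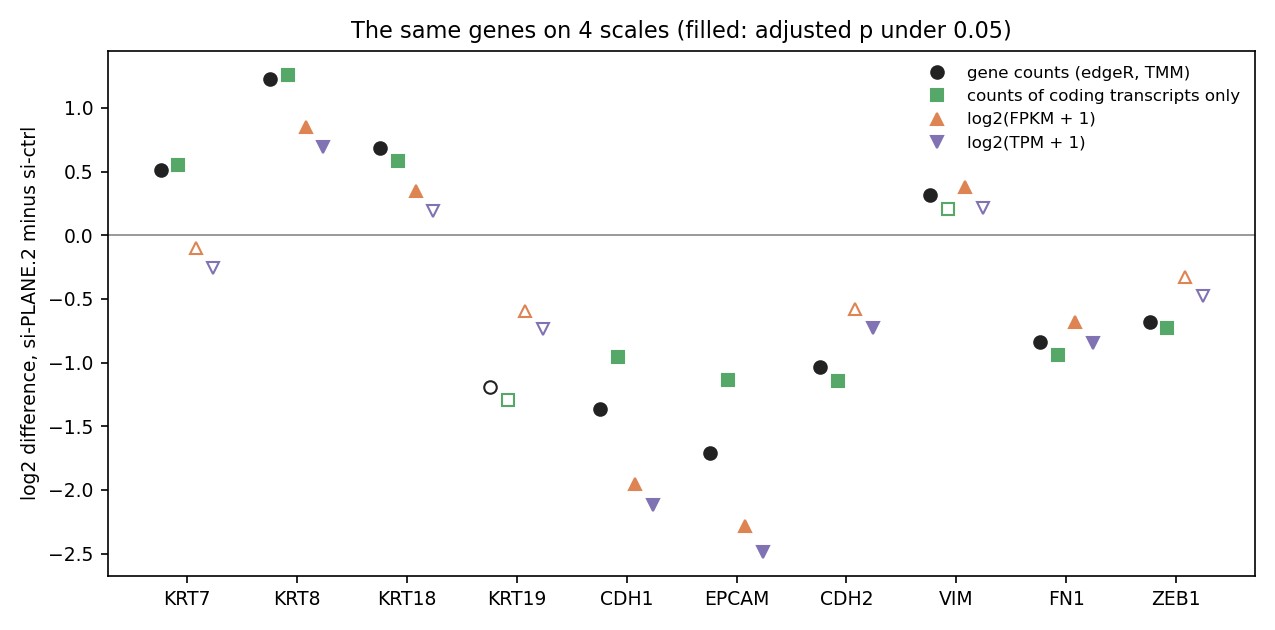
Difference between si-PLANE.2 and si-ctrl for each of the 10 genes on 4 scales: gene counts, counts of coding transcripts only, log2(FPKM + 1) and log2(TPM + 1), where a filled marker has an adjusted p under 0.05. KRT7 is higher in counts (0.51) and lower in FPKM (-0.10), and the other 9 genes keep their direction.

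The siRNAs were then compared with each other, since an effect seen with 1 siRNA and not with the other is not by itself a difference. Between them, 8 of the 10 genes were called, against 64.4% of all 14440 genes tested. KRT8 was higher with si-PLANE.2 by a log2 difference of 1.54 (SE 0.16, adjusted p = 5.50e-05), KRT18 by 1.01 (SE 0.19, adjusted p = 0.00166) and KRT7 by 0.54 (SE 0.13, adjusted p = 0.00605). EPCAM was lower by -1.99 (SE 0.22, adjusted p = 8.03e-05) and CDH1 by -1.45 (SE 0.12, adjusted p = 1.92e-05). CDH2, FN1 and ZEB1 were lower by -1.06, -0.83 and -0.82. KRT7 reversed on log2(FPKM + 1), to -0.18, and without si-PLANE.2 replicate 4 its adjusted p was 0.0757. VIM, at 0.43 (adjusted p = 0.0525), and KRT19, at -1.43 (adjusted p = 0.133), missed the threshold in edgeR. VIM was called by DESeq2 (adjusted p = 0.0117) and without si-PLANE.1 replicate 2 (adjusted p = 0.00647).

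A gene total can hide an exchange between its transcripts, so the transcripts of the members were examined next. The transcript with the highest mean FPKM over the 6 libraries was taken as the main one of its gene, and names were taken from GENCODE v44lift37 on GRCh37, in which 124 of the 133 transcripts were found. With si-PLANE.1 none of the 10 main transcripts passed the test, against 0% of all 57625 transcripts tested. At an unadjusted p under 0.05 edgeR gave 1 of the 10, KRT8-201, against 2552 of all 57625 transcripts. DESeq2 called KRT8-201 alone among the 10, at -0.35 (adjusted p = 0.00284), against 397 of all 57625 transcripts. With si-PLANE.2, 5 of the 10 main transcripts passed, 2 higher and 3 lower, against 25.6% of all 56791 transcripts tested. Whether these calls hold without a si-PLANE.2 replicate was not shown. With 1 library left in that group the fit made few or no calls among all transcripts. Without any 1 replicate the log2 fold changes ran from 0.72 to 0.80 for KRT7 and 1.42 to 1.50 for KRT8. They ran from -6.75 to -6.55 for KRT18, -2.77 to -2.39 for CDH1 and -9.49 to -9.12 for EPCAM. On simulated data the transcript fit recovered 0% of 4-fold changes in the si-PLANE.1 comparison and 0.5% in the other, so the count of 0 for si-PLANE.1 carries no information, and a transcript that missed the threshold was not shown to be unchanged.

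KRT18 showed the largest exchange. Its transcript KRT18-202 (ENST00000388837) held 3310 and 3700 FPKM in si-ctrl, 2613 and 3467 FPKM with si-PLANE.1, and 27.4 and 29.9 FPKM with si-PLANE.2. KRT18-201 (ENST00000388835) did the opposite, with 377 and 515 FPKM in si-ctrl, 342 and 308 FPKM with si-PLANE.1, and 5057 and 4984 FPKM with si-PLANE.2. The share of KRT18-202 in the gene total thus went from 86.4% to 90.2% in the first 4 libraries to 0.53% and 0.59% in the last 2. In edgeR KRT18-202 fell by 6.64 on the log2 scale (adjusted p = 0.00529) and KRT18-201 rose by 3.78 (adjusted p = 0.00629).

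Both KRT18 transcripts encode the same keratin in the annotation, since all 1290 coding bases are shared. They share 1352 exonic bases, 61 bases are found in KRT18-201 alone and 68 in KRT18-202 alone, and their start sites lie 247 bases apart. KRT18-201 begins at chr12:53342902 with 7 exons, and KRT18-202 begins at chr12:53342655 with 8 exons. Both starts lie inside the region of overlap with KRT8. The tables give KRT18-201 a length of 1562 bases against 1413 bases in GENCODE v44lift37, so the model the authors counted on was not identical. Reads that fall in shared exons are divided between such transcripts by an estimate, and the division is less certain than the gene total.

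KRT8 and KRT7 lost short transcripts relative to the coding one. KRT8-201 (ENST00000293308) held 67.2% to 81.9% of the KRT8 total in the libraries of si-ctrl and si-PLANE.1 and 97.7% and 97.5% in si-PLANE.2. The retained-intron transcripts of KRT8, which are fragments that keep an intron and encode no full protein, together held 25.3% and 17.3% in si-ctrl, 22.1% and 32.1% in si-PLANE.1, and 0.624% and 0.822% in si-PLANE.2. KRT8-208 alone went from 479 and 329 FPKM in si-ctrl to 8.36 and 13.9 FPKM with si-PLANE.2, a fall called in edgeR (adjusted p = 0.00744). Across all genes, retained-intron transcripts took 7.79% to 8.12% of all FPKM in the libraries of si-ctrl and si-PLANE.1 and 4.43% and 4.58% in si-PLANE.2. Their part in the member results was not tested.

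**Figure D4:**
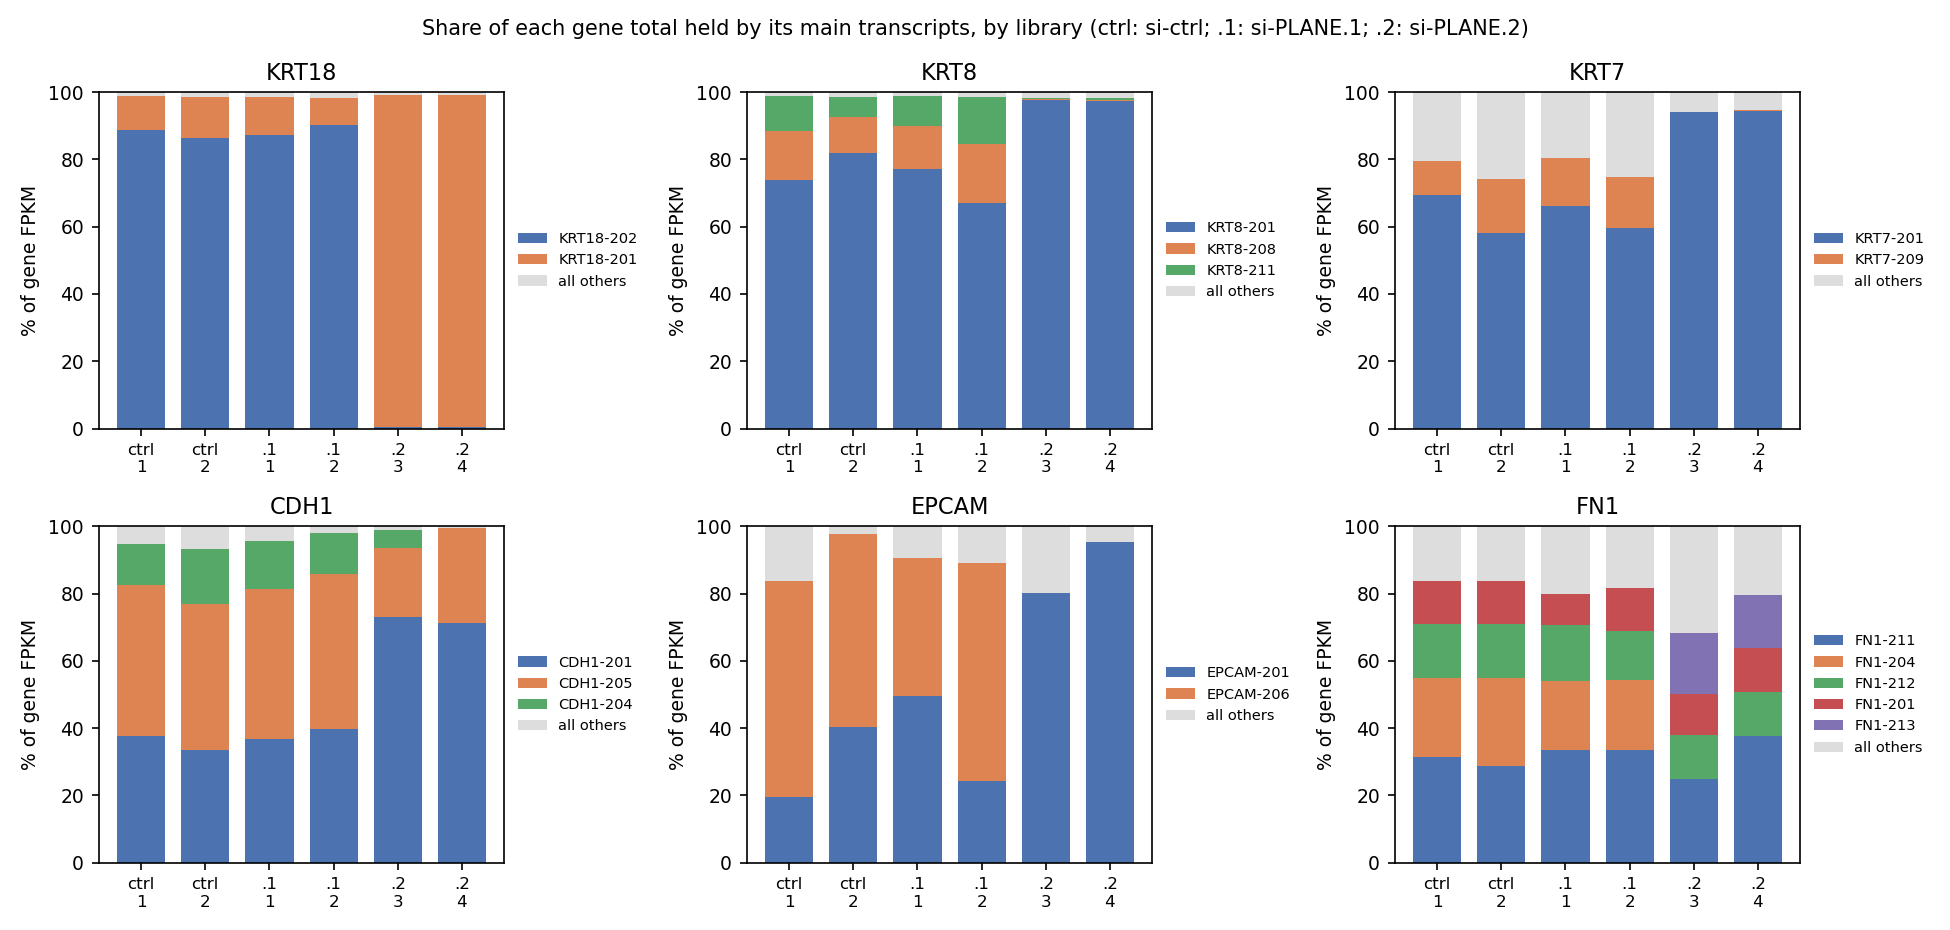
Share of the gene total in FPKM held by each main or major transcript of 6 of the genes, with 1 stacked bar per library and all remaining transcripts in grey. The bars of si-ctrl and si-PLANE.1 are broadly alike except for EPCAM. EPCAM-206 holds 64.2% and 57.6% of it in si-ctrl and 41.0% and 64.9% in si-PLANE.1. In si-PLANE.2 KRT18-201 makes up 98.6% of KRT18, EPCAM-206 and FN1-204 are at 0, and CDH1-201 makes up 73.0% and 71.1% of CDH1.

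The largest share of CDH1 in FPKM lay, in the first 4 libraries, with a transcript without a defined coding sequence, at 43.4% to 46.1%. CDH1-205 (ENST00000562836, 2759 bases) held 58.4 and 67.7 FPKM in si-ctrl, 71.6 and 71.3 FPKM with si-PLANE.1, and 7.52 and 10.02 FPKM with si-PLANE.2. The full-length coding transcript CDH1-201 (ENST00000261769, 4889 bases) held 48.8 and 52.2 FPKM in si-ctrl, 58.7 and 61.3 FPKM with si-PLANE.1, and 26.6 and 25.2 FPKM with si-PLANE.2. Both fell in edgeR, CDH1-205 by 2.56 (SE 0.19, adjusted p = 0.00758) and CDH1-201 by 0.68 (SE 0.11, adjusted p = 0.0221) on the log2 scale. CDH1-201 therefore held 33.5% to 39.6% of the gene total in the first 4 libraries and 73.0% and 71.1% in si-PLANE.2. CDH1-205 begins with a first exon of its own, 234 bases at chr16:68797197-68797430 (GRCh37, plus strand), which lies inside the intron between the second and the third exon of CDH1-201. Its sequence is shown because no protein-coding CDH1 transcript in the annotation holds it as exon.

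CDH1-205 first exon: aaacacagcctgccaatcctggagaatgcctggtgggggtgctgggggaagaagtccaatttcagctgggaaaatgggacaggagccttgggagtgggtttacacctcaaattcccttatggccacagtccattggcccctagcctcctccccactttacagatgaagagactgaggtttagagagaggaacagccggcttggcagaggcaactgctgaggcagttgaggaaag

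EPCAM was likewise split. EPCAM-206 (ENST00000490733), a retained-intron transcript of 752 bases, held 11.7 and 8.85 FPKM in si-ctrl and 6.05 and 17.2 FPKM with si-PLANE.1, and was listed at 0 in both si-PLANE.2 libraries. With those set at a floor of 3 counts per library, its estimate was 33.4-fold lower there, with 80.1 and 63.1 expected counts in si-ctrl. The fold is not a bound, since the division of shared reads between transcripts is an estimate. The coding transcript EPCAM-201 (ENST00000263735) held 3.56 and 6.18 FPKM in si-ctrl, 7.32 and 6.43 FPKM with si-PLANE.1, and 2.08 and 2.57 FPKM with si-PLANE.2, and was not called (log2 fold change -0.78, SE 0.44, adjusted p = 0.246 in edgeR). Its ranges did not overlap between si-ctrl and si-PLANE.2. EPCAM-206 begins with 33 bases at chr2:47600914-47600946 (GRCh37, plus strand) that no protein-coding EPCAM transcript in the annotation holds as exon, and these are shown as the stretch that sets it apart.

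EPCAM-206 own stretch: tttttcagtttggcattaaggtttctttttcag

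FN1 had 30 transcripts in the tables, 20 of which reached 1 FPKM. Its main transcript FN1-211 (ENST00000443816) held 127 and 103 FPKM in si-ctrl, 148 and 127 FPKM with si-PLANE.1, and 58.8 and 89.9 FPKM with si-PLANE.2, and was not called (log2 fold change -0.36, SE 0.24, adjusted p = 0.311 in edgeR). FN1-204 (ENST00000356005) held 96.5 and 93.5 FPKM in si-ctrl and 91.6 and 78.3 FPKM with si-PLANE.1 and was at 0 in si-PLANE.2. With si-PLANE.2 set at the floor of 3 counts per library, its estimate was 4679-fold lower there. FN1-213 (ENST00000456923), a partial model of 3720 bases, was at 0 in the first 4 libraries and at 42.4 and 37.6 FPKM with si-PLANE.2. With si-ctrl set at the same floor, its estimate was 649-fold higher with si-PLANE.2. Neither fold is a bound, since reads in shared exons are divided between transcripts by an estimate. The retained-intron share of FN1 was 26.0% in si-PLANE.2 replicate 3 and 10.5% in replicate 4, against 8.75% to 9.38% in the other libraries, the reverse of the direction in KRT8.

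Fibronectin differs between adult and embryonic or tumour tissue by 2 extra type III domains, each encoded by a single exon that splicing can include or skip. The EDA exon lies at chr2:216245534-216245803 and the EDB exon at chr2:216257654-216257926, both on the minus strand of GRCh37. They are shown with 10 intronic bases on each side in lower case and the exon in capitals, since FN1 transcripts differ in whether they hold them.

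FN1 EDA exon: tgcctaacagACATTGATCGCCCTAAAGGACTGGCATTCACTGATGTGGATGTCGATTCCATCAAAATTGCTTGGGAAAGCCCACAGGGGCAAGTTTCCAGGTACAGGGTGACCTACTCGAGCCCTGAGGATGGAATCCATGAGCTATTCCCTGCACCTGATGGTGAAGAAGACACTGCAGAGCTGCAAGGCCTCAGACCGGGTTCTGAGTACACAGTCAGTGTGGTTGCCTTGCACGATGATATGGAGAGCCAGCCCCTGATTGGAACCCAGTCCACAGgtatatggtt
FN1 EDB exon: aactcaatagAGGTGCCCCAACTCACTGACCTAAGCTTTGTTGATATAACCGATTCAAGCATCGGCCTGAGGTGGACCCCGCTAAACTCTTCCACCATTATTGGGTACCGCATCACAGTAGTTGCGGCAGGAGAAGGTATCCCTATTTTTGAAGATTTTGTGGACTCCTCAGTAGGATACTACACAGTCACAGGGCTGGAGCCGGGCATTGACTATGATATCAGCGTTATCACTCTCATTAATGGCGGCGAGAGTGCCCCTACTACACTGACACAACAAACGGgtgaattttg

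Inclusion was estimated as the share of FPKM in transcripts that contain the exon, among transcripts that span it. EDA was contained in 5 transcripts and skipped in 6. Its share was 32.0% and 33.2% in si-ctrl, 29.2% and 30.9% in si-PLANE.1, and 36.9% and 33.9% in si-PLANE.2. EDB, with 3 transcripts containing it and 7 skipping it, stood at 21.1% and 22.0% in si-ctrl, 21.9% and 23.6% in si-PLANE.1, and 30.9% and 30.8% in si-PLANE.2. The si-PLANE.2 values lay above all others for both exons. The size of the EDA difference rested on the partial FN1-213, which skips EDA and has no EDB value since it begins inside that exon. Without it the EDA share with si-PLANE.2 was 49.0% and 41.2%, while the other libraries did not move. The EDB share with si-PLANE.2 also depends on leaving FN1-213 out, since it holds part of EDB. FN1-213 stood at 42.4 and 37.6 FPKM there, against 40.1 and 53.8 FPKM in the transcripts counted as containing EDB. These shares are estimates from transcript levels and are given without a test.

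VIM and ZEB1 gained transcripts that were at 0 elsewhere. VIM-201 (ENST00000224237) held 97.9% to 98.9% of VIM in the first 4 libraries and 79.2% and 75.0% in si-PLANE.2, with 560 and 628 FPKM in si-ctrl and 590.3 and 616 FPKM with si-PLANE.2. The remainder in si-PLANE.2 was largely VIM-208 (ENST00000497849, 634 bases), at 0 in the first 4 libraries and at 104 and 125 FPKM with si-PLANE.2, or 13.9% and 15.2% of the gene. Its expected counts were 865 and 912. With si-ctrl set at the floor of 3 counts per library, this estimate was 213-fold higher, which is not a bound either. VIM-208 lies at chr10:17270868-17271749, where VIM-AS1 overlaps VIM by 1778 bases on the opposite strand. ZEB1-202 (ENST00000424869) was at 0 in the first 4 libraries and at 2.68 and 3.40 FPKM with si-PLANE.2, and the main ZEB1-201 (ENST00000320985) went from 4.85 and 4.40 FPKM in si-ctrl to 2.23 and 2.45 FPKM (adjusted p = 0.0581 in edgeR). The 26 ZEB1 and 5 CDH2 transcripts rested on few reads, and the main CDH2-201 ranged from 0.55 to 2.0 FPKM over all libraries.

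Genes with the profile most like that of 3 members were listed by the root-mean-square distance between centred log2(FPKM + 1) values over the 6 libraries, among 10183 genes. For KRT18 these were PACSIN3 (0.0204), RPL12 (0.0383) and RPS10 (0.0468). For CDH1 they were ZMYND8 (0.0386), ORC6 (0.0487) and RBM26 (0.0594), and for VIM they were WTIP (0.0347), DCTN2 (0.0409) and CTTN (0.0569).

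Wider lists of identity genes were set beside the members. With si-PLANE.1 no gene of the 7 lists was called by edgeR, DESeq2 or limma on log2(FPKM + 1). In edgeR 1 to 5 genes of each list reached an unadjusted p under 0.05, against 1517 of all 14535 genes tested. With si-PLANE.2 genes of these lists were called in both directions, read against 64.1% of all genes in edgeR, 31.8% higher and 32.3% lower. By limma on log2(FPKM + 1), 3006 of all 14168 genes rose and 5105 fell. On log2(TPM + 1), 2315 rose and 5776 fell. Of 7 other keratins tested out of 16, 4 rose and none fell, under every scaling tried. KRT4 rose from 2.85 and 2.70 FPKM in si-ctrl to 37.5 and 47.5 FPKM (log2 fold change 4.32, SE 0.16, adjusted p = 3.36e-06), and KRT80 rose from 19.7 and 22.8 to 43.6 and 43.5 FPKM (1.24, adjusted p = 6.00e-05). KRT81, a hair type keratin, was the most abundant of this list, at 588 and 556 FPKM in si-ctrl and 944 and 905 FPKM with si-PLANE.2, and was named after its values were seen.

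Junction genes were divided evenly in counts. Of 31 tested, 11 rose and 11 fell in edgeR, against 6 and 17 by limma on log2(TPM + 1). On that scale 2315 of all 14168 genes rose and 5776 fell. DSP, the desmoplakin that ties keratin filaments to desmosomes, went from 107 and 111 FPKM to 26.4 and 30.0 FPKM (log2 fold change -1.69, adjusted p = 1.86e-05). TJP1, a scaffold of tight junctions, went from 131 and 112 to 41.1 and 46.3 FPKM (-1.13, adjusted p = 5.67e-05). PKP3, a desmosomal plaque protein, rose from 22.3 and 12.2 to 30.1 and 36.7 FPKM (1.42, adjusted p = 6.51e-05), as did CRB3, a polarity protein, from 6.62 and 7.65 to 13.6 and 12.6 FPKM (1.10, adjusted p = 0.00354).

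Among regulators of the epithelial state, 2 of 11 tested rose and 6 fell in edgeR, against 1 and 4 by limma on log2(FPKM + 1). The protease inhibitor gene SPINT2 rose by 1.82 on the log2 scale of counts, from 259 and 229 FPKM to 481 and 467 FPKM, and the transcription factor gene ELF3 rose by 0.82. ERBB3, a receptor of the EGFR family, fell by 1.23 and the transcription factor gene KLF5 fell by 1.15. Of 12 EMT transcription factors tested, 2 rose and 8 fell in edgeR, with 1 or 2 rising and 8 or 9 falling under the other scalings. HMGA2 went from 7.84 and 6.78 FPKM to 4.38 and 3.80 FPKM (-1.36, adjusted p = 0.000119) and SOX9 from 17.9 and 14.6 to 7.60 and 7.66 FPKM (-0.91, adjusted p = 0.000398). FOSL1, a subunit of the AP-1 factor, rose by 1.43 and TCF3 by 0.55. SNAI2 and ZEB2 did not exceed 0.26 and 0.61 FPKM in any library.

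Of 34 mesenchymal structural genes tested, 7 rose and 14 fell. S100A4, a calcium-binding protein, rose from 253 and 135 FPKM to 991 and 903 FPKM (2.55, adjusted p = 8.88e-05), and the tropomyosin gene TPM2 from 71.6 and 86.3 to 307 and 283 FPKM (2.24, adjusted p = 9.87e-06). The receptor kinase gene AXL fell by 1.47 and VCAN, a matrix proteoglycan, by 1.18. Of 23 genes of the TGF-β pathway tested, 3 rose and 11 fell in edgeR, and none rose and 13 fell on log2(FPKM + 1). On that scale 3006 of all 14168 genes rose and 5105 fell. TGFBR1 and TGFBR2 were higher in counts by 0.62 and 0.56, and the coreceptor gene TGFBR3 fell by 2.04. The SMAD corepressor gene SKIL fell by 1.91. Of 9 lung epithelium markers tested, FOXA2 rose by 0.66 in edgeR, with no marker higher by limma on log2(FPKM + 1), and 4 fell, among them MUC5AC by 1.58 and MUC1 by 1.11.

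**Figure D5:**
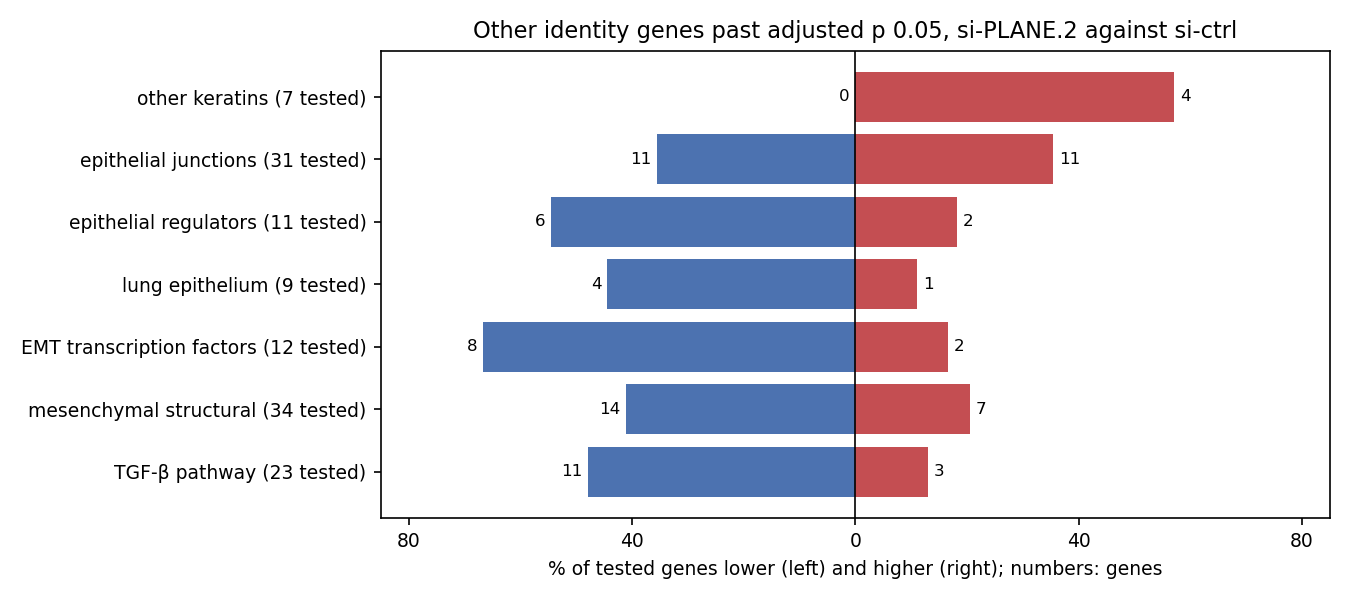
Percent of the tested genes of each list that were lower (blue, left) or higher (red, right) in si-PLANE.2 than in si-ctrl at an adjusted p under 0.05 in edgeR, with the number of genes at the end of each bar. Other keratins have 4 higher and 0 lower, EMT transcription factors 2 higher and 8 lower, and epithelial junction genes 11 in each direction.

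Markers of other cell types were at or near 0, apart from CD68, CD14 and LUM. CD68 lay at 18.3 to 63.0 FPKM over the 6 libraries. The 8 fibroblast markers summed to 1.93 to 7.82 FPKM in the first 4 libraries and to 0.60 and 0.67 FPKM with si-PLANE.2, with FAP at 0 throughout. Most of this sum was LUM, which fell by 2.05 and was the only one of the list tested. The 6 endothelial markers did not exceed a sum of 1.06 FPKM. The 12 leukocyte markers summed to 23.2 to 46.5 FPKM in the first 4 libraries and to 60.6 and 70.9 FPKM with si-PLANE.2, nearly all from CD68 and CD14, while CD3E, CD3D and CD2 were at 0 and PTPRC did not exceed 0.02 FPKM.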

How the data were processed

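RNA-seq was carried out on 6 libraries of A549 cells, 2 for each siRNA. The authors deposited expected counts and FPKM per transcript, in 1 table for each siRNA, with identical si-ctrl values in both. The submitters' processing notes name Trimmomatic 0.30, HISAT2 2.0.1, HTSeq 0.6.1, DESeq and hg19, and the tool behind the expected counts, which are not whole numbers, is not given in the sources used here. Expected counts were rounded and summed per gene, leaving out 3.03% to 3.62% of counts on transcripts without a gene identifier, and 96.4% of gene identifiers matched a symbol.

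Those averaging 0.5 FPKM or more were tested, as genes or as transcripts, with edgeR 4.0.16 (TMM scaling, quasi-likelihood test) in R 4.3.3, with Benjamini-Hochberg adjustment. Each siRNA was fitted with si-ctrl alone, and the siRNAs were compared in 1 fit of all 6 libraries, so both comparisons with si-ctrl share its libraries. The SE is the log2 fold change divided by the square root of the F statistic. DESeq2 1.42.0 and limma 3.58.1 served as alternatives, with TPM computed from FPKM. Values set at a floor used 3 counts per library, and folds against it are not bounds for transcripts that share exons. The fits were tested on simulated data, in which the gene fits recovered 100% of 4-fold changes in both comparisons. Beside the 200 changed genes they also made false calls, 19 in the si-PLANE.1 comparison and 25 in the other. The changed genes were drawn only from those above the median level. Recovery was therefore not shown to hold at low counts, as in KRT19 and CDH2.

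The 10 genes and the other lists were chosen with earlier results of these data known. All 10 genes were named. So were transcripts with at least 10% of a gene's FPKM in any group, and per list and direction up to 2 called genes of at least 5 FPKM with the largest change. The named transcripts are a selection of these. Endothelial markers are given for 6 of 7 symbols and histone genes for 11 of 31, since the others did not match a gene. Transcript coordinates and sequences were read from GENCODE v44lift37 and the GRCh37 genome.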

Additional observations from a re-analysis of the deposited data

Results flagged for a closer look

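For 8 of the 10 genes the test of the difference between the siRNAs passed the threshold in edgeR, in the fit of all 6 libraries. The log2 difference, si-PLANE.2 minus si-PLANE.1, was 1.54 for KRT8, 1.01 for KRT18 and 0.54 for KRT7. It was -1.99 for EPCAM, -1.45 for CDH1, -1.06 for CDH2, -0.83 for FN1 and -0.82 for ZEB1. Of all genes tested, 64.4% passed the same test. The second siRNA and the make-up of its libraries cannot be told apart. Groups of 2 libraries were too small for a test of single outlying samples.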

How the results depend on the processing

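The count of genes called was 0 of 10 for si-PLANE.1 in all alternatives and without any 1 replicate (0 to 0). For si-PLANE.2 it was 9, beside 9083 of all 14168 genes, and 5 by limma on log2(TPM + 1), beside 8091 of 14168. Between the siRNAs it was 8, beside 9305 of all 14440 genes. It was 7 by limma (8468 to 8649 of 14440), 9 with DESeq2 (8856 of 14440) and 10 with no minimum (10035 of 21070). Without 1 replicate the member count moved in both comparisons, and so did the count over all genes. Main transcripts called were 0 for si-PLANE.1 (1 with DESeq2, 0 to 0 without 1 replicate, no sign of stability in a fit that could make so few calls) and 5 for si-PLANE.2 (0 to 6 without 1 replicate). Apart from leaving out replicates, the results of single genes and transcripts kept direction and side of the threshold in 345 cases, lost the call in 15, gained it in 8 and reversed in 17.

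The reversals for si-PLANE.1 were KRT7 at 0.00687 under upper-quartile scaling, 0.0796 on log2(FPKM + 1), 0.0797 on log2(FPKM + 0.1) and 0.16 on log2(TPM + 1), CDH2 at -0.43 by its most abundant transcript, VIM at 0.0410 on log2(TPM + 1) and FN1 at -0.00411 with no minimum. Its main transcripts reversed for KRT7, at 0.0657 on log2(FPKM + 1) and 0.00533 with a minimum of 2 FPKM, and for EPCAM, at -0.0623 with the replicate block. For si-PLANE.2, KRT7 was -0.10 on log2(FPKM + 1), -0.10 on log2(FPKM + 0.1) and -0.26 on log2(TPM + 1), and KRT18 was -6.74 by its most abundant transcript, KRT18-202. Between the siRNAs, KRT7 was -0.18 on log2(FPKM + 1), -0.18 on log2(FPKM + 0.1) and -0.42 on log2(TPM + 1), the last called by limma (adjusted p = 0.0216). The cause was not tested, except that KRT18 follows from the choice of transcript.

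Without 1 replicate, si-PLANE.1 ranged from -0.0772 to 0.0299 for KRT7, -0.84 to 1.94 for KRT19, -0.0214 to 0.23 for CDH1, -0.0204 to 0.55 for EPCAM, -0.21 to 0.23 for CDH2, -0.35 to 0.10 for VIM and -0.0748 to 0.0786 for FN1, and si-PLANE.2 from -1.93 to 0.50 for KRT19. Among main transcripts, si-PLANE.1 ranged from -0.10 to 0.0580 for KRT7, -1.35 to 1.71 for KRT19, -0.0246 to 0.22 for CDH1, -0.86 to 0.68 for EPCAM, -0.93 to 0.31 for CDH2, -0.35 to 0.10 for VIM and -0.24 to 0.32 for ZEB1. For si-PLANE.2 they ranged from -1.94 to 0.51 for KRT19 and -1.18 to 0.0639 for CDH2. Where 1 library of a group was left, it was assumed to vary like the others.

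The labels give si-ctrl and si-PLANE.1 the same replicate numbers. Differences between replicates 1 and 2 correlated at 0.261 across 14535 genes, a hint of a shared replicate effect. No label says what a number marks, and with 2 pairs the numbers were not taken as a pairing. With the replicate block 0 of the 10 genes and 0 of the main transcripts were called, while the count over all genes went from 5 to 1225. The lowest adjusted p-values of the 10 genes in that edgeR fit were 0.105 for KRT18 and 0.133 for KRT8. Their log2 fold changes there were -0.33 and -0.31. No paired analysis was possible for si-PLANE.2, whose numbers are 3 and 4. Counting coding transcripts only was added after the data were seen. So was leaving FN1-213 out of the EDA share. KRT19 rested on 12 to 65 counts a library and had the largest SE for si-PLANE.1, 0.77.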
